A study of Rattus norvegicus with 12 samples.

Results

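The genes described here were tumor necrosis factor (Tnf), 6 receptors of its family (Tnfrsf1a, Tnfrsf1b, Tnfrsf12a, Tnfrsf21, Ltbr and Fas) and the adaptors Traf2 and Tradd, in fibroblast-like synoviocytes (FLS). They were found by gene name in the table of expression values, where each of the 9 names had 1 record, so that 9 of 22442 gene records are covered. The FLS were grown from synovial tissue of male Sprague Dawley rats with adjuvant arthritis (AA), raised with complete Freund's adjuvant. All 4 groups came from AA rats. The FCA group received DMEM alone, and the AT01, AT1 and AT10 groups received taurochenodeoxycholic acid (TCDCA), a taurine-conjugated bile acid, at 0.1, 1 and 10 µM (1e-07, 1e-06 and 1e-05 M) for 12 h. Each group had 3 libraries of poly(A) RNA.

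TNF is an inflammatory cytokine, made chiefly by macrophages and other immune cells, and it is a target of treatment in arthritis. It signals through TNF receptor 1 (encoded by Tnfrsf1a), which most cells carry, and TNF receptor 2 (Tnfrsf1b), which is found mainly on immune and endothelial cells. Receptor 1 recruits the adaptor TRADD and then TRAF2, which leads to activation of NF-kB and of MAP kinases, while receptor 2 binds TRAF2 directly. FLS are known to answer TNF with chemokines, adhesion molecules and matrix-degrading enzymes.

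Values were FPKM, fragments scaled to the exon length of a gene and to the mapped reads of its library, a level per length that can be set side by side between genes. Some records also held assembled transcripts beside the annotated one. These were 2 of 3 transcripts for Tnfrsf12a, Ltbr and Fas, 4 of 5 for Traf2 and 1 of 2 for Tradd. How far the levels depend on them was not tested. Summed over records, a library held 284210 to 309696 FPKM, and between 11471 and 11679 records reached 1 FPKM. The reads behind each value are not known, so no counting error can be given, and the spread is that between libraries. Nothing in the labels says whether the 3 libraries of a group came from separate animals or cultures, so p-values measure only the spread between these libraries, which may be technical. In such bulk RNA, fewer cells of a type and less RNA per cell cannot be told apart.

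The labelled cell type was checked with marker genes. All 10 fibroblast markers with a record reached 1 FPKM in all 12 libraries, led by Vim (vimentin, mean 2658 FPKM) and Col3a1 (a fibrillar collagen, 853.4 FPKM). Of the 8 macrophage and leukocyte markers with a record, Adgre1, Aif1, Mrc1 and Laptm5 were under 0.1 FPKM in every library, and 2 reached 1 FPKM in all libraries, Cd14 at a mean of 13.8 FPKM and Cd68, a lysosomal protein abundant in macrophages, at 2.13 FPKM (1.66 to 2.91). The summed level of all 8 ranged from 6.65 to 21.9 FPKM in FCA, 6.26 to 20.4 in AT01, 5.87 to 17.7 in AT1 and 18.6 to 21.7 in AT10. Cd14, a lipopolysaccharide co-receptor that fibroblasts can also carry, was between 3.6 and 4.6 FPKM in 3 libraries (FCA replicate 3, AT1 replicate 1 and AT01 replicate 1) and between 15.7 and 18.82 FPKM in the other 9. Lymphocyte markers summed to at most 0.29 FPKM in any library, the highest means being 0.078 FPKM for Lck and 0.018 for Cd4. Of 9 endothelial markers with a record, 6 were under 0.1 FPKM throughout and Egfl7 alone reached 1 FPKM in all libraries (mean 19.4 FPKM), followed by Erg at a mean of 0.159 FPKM. Listed markers without a record could not be checked. These were Ptprc, Cd163, Itgam, Tyrobp, C1qa and C1qb for macrophages and leukocytes, and Cd3g, Cd8a, Cd79b and Ms4a1 for lymphocytes. Pecam1 for endothelium, and Col1a2 and Pdgfra for fibroblasts, were also without one.

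The ligand was at the bottom of the scale. Tnf (ENSRNOG00000055156) was listed at 0 in 10 of 12 libraries. The exceptions were FCA replicate 2 at 0.02 FPKM and AT01 replicate 2 at 0.03 FPKM, which leaves both the untreated and the treated FLS at 0.03 FPKM or less, and no fold change is given. The table has 1 more record for this cytokine, LOC103694380 (MSTRG.10289), described as tumor necrosis factor-like. Its values were identical to those of Tnf in 12 of 12 libraries, and no record besides this one had all 12 values of Tnf. Whether the 2 records share sequence or reads was not tested, so their levels cannot be taken as independent. How reads were assigned between them is not known, so the level of Tnf may be understated.

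The receptors and adaptors were all present. The other 8 members were at 1 FPKM or more in all 12 libraries, a level that 43.9% of all records reached. At a stricter level of 5 FPKM in every library, 5 members remained: Tnfrsf12a, Ltbr, Tnfrsf1a, Tradd and Traf2. Mean levels over the 12 libraries ran from Tnfrsf12a (200.3 FPKM) over Ltbr (66.2), Tnfrsf1a (55.8), Tradd (9.63), Traf2 (7.85), Tnfrsf21 (6.07) and Tnfrsf1b (4.20 FPKM) to Fas (3.57 FPKM). Tnfrsf12a ranked 206 among all records, Tnfrsf1a 922 and Tnfrsf1b 7405. Among the receptors that are members, the 3 most abundant were thus set apart from the rest by a wide step. Tnfrsf11b, a further receptor of the family given below, lay within that step at a mean of 21.1 FPKM.

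Within that order some neighbours were not separated. Tnfrsf12a was above Ltbr in every library, its lowest value (160.85 FPKM) lying above the highest of Ltbr (104.6 FPKM). Ltbr exceeded Tnfrsf1a in 9 of 12 libraries, with a ratio between 0.927 and 1.81, so that their order changed between libraries. Tnfrsf1a exceeded Tradd in 12 of 12 libraries, by 4.58 to 7.98 times. Below that step the order was loose. Tradd exceeded Traf2 in 10 libraries, Traf2 exceeded Tnfrsf21 in 10, Tnfrsf21 exceeded Tnfrsf1b in 11 and Tnfrsf1b exceeded Fas in 10 of the 12.

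**Figure D1:**
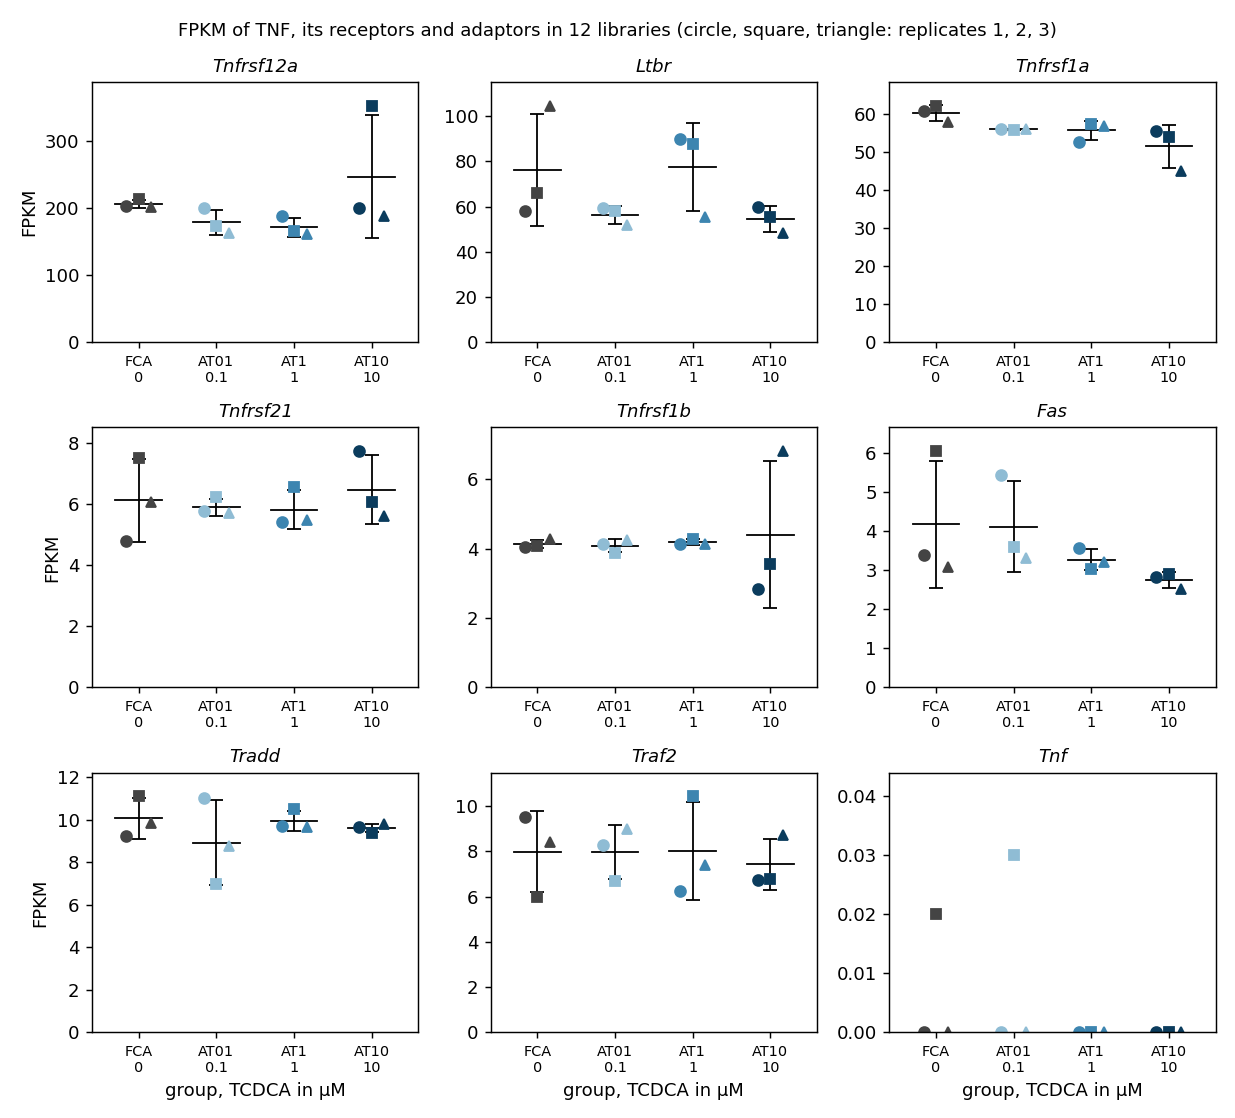
FPKM (vertical axes, from 0) of the 9 members in each library, by group and TCDCA dose in µM (horizontal axes); symbols are replicates 1, 2 and 3, long lines are group means and error bars are SD with n = 3, left out for Tnf. Tnf lies at or under 0.03 FPKM in all panels' libraries, and the 3 treated groups of Tnfrsf1a lie between 44.88 and 57.41 FPKM, under the 3 FCA libraries.

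Promoter sequences are shown for the ligand that was listed near 0, for its main receptor and for the most abundant receptor. They are the 250 bases before the annotated start, from RefSeq on GRCr8 and written 5′ to 3′ along the strand of the gene. A RefSeq promoter was matched for 8 of the 9 members, the exception being Tradd. The Tnf sequence is chr20:3626435-3626684 (plus strand), with TATAAA in capitals. The Tnfrsf1a sequence is chr4:159836869-159837118 (plus strand), without capitals because neither motif searched is in it. The Tnfrsf12a sequence is chr10:13213649-13213898 (minus strand), with each GGGCGG or CCGCCC in capitals.
Tnf: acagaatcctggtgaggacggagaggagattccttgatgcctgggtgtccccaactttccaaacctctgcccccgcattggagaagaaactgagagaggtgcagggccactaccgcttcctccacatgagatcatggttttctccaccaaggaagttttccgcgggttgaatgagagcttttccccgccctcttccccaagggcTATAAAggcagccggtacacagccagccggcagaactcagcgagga
Tnfrsf1a: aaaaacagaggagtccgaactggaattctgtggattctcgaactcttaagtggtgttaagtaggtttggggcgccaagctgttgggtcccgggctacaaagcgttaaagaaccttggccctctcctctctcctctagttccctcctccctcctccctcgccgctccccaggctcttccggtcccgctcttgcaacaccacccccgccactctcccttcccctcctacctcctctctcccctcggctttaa
Tnfrsf12a: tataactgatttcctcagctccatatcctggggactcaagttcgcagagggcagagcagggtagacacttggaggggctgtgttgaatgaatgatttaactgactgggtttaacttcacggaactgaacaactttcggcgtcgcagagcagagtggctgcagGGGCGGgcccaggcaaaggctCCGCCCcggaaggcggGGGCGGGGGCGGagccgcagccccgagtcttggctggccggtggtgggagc

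The first motif was the TATA box, TATAAA. The second, known as the GC box, was GGGCGG, and each was searched on both strands. TATAAA was in 12.93% of 33469 rat promoters of this length and, among the 8 members matched, only in that of Tnf, where it begins 46 bases before the start. GGGCGG was in 30.47% of all promoters and in 7 of the 8 members, with 4 copies in Tnfrsf12a and none in Tnfrsf1a. Their share of G and C was 56% in Tnf, 57.6% in Tnfrsf1a and 60.8% in Tnfrsf12a, beside a median of 51.2% over all promoters. Such a match describes the letters in this window only.

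The 2 receptors of TNF itself differed widely in level. Tnfrsf1a (MSTRG.13057) stood at 60.63, 62.03 and 57.85 FPKM in FCA, 55.89, 55.79 and 56.09 in AT01, 52.66, 57.41 and 56.8 in AT1, and 55.43, 53.95 and 44.88 FPKM in AT10. All 9 TCDCA libraries were below all 3 FCA libraries, the nearest values being 57.41 and 57.85 FPKM. Tnfrsf1b (MSTRG.14352) stood at 4.05, 4.08 and 4.28 FPKM in FCA, 4.13, 3.88 and 4.25 in AT01, 4.14, 4.29 and 4.13 in AT1, and 2.84, 3.55 and 6.82 FPKM in AT10. Its first 3 groups were close together, while AT10 held both the lowest and the highest library. Within a library, Tnfrsf1a was 6.58 to 19.5 times Tnfrsf1b (median 13.6), and both ends of that range were AT10 libraries.

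The question of the design was whether TCDCA changed these levels. Mean Tnfrsf1a in the FCA libraries was 60.2 ± 2.13 FPKM (SD, n = 3). With rising dose the treated means were 55.9 ± 0.153, 55.6 ± 2.58 and 51.4 ± 5.71 FPKM. Over the 9 TCDCA libraries it was 54.3 FPKM, a difference of -9.72%, and the log2 fold change of FPKM + 1 was -0.15 (95% interval -0.30 to 0.0033). Its adjusted p was 0.422 by limma over all 11611 records tested, and a two-sided exact permutation test over the libraries gave p = 0.0545, where the smallest possible p is 0.00455. By dose, the log2 fold change was -0.10 in AT01, -0.11 in AT1 and -0.23 in AT10, with limma adjusted p of 0.783, 0.501 and 0.427. The AT10 value was -0.13 without AT10 replicate 3, and the AT1 value was -0.074 without AT1 replicate 1, so that no order of the doses is read from them. These comparisons share the FCA libraries, and 3 libraries against 3 cannot give an exact permutation p under 0.1. The difference therefore did not pass the test. Across the 4 groups, Tnfrsf1a had 54.0% of its variation between groups, with an exact permutation p of 0.0305 over 15400 groupings and a limma adjusted p of 0.62. This exact test was run for 8 members without adjustment, and the other 7 gave permutation p from 0.146 to 0.994. Its record was among the steadier ones, since its SD of 0.115 on the log2 scale over 12 libraries was undercut by 21.9% of the records tested.

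Tnfrsf1b gave a log2 fold change of 0.00 in AT10 against FCA, with a wide 95% interval from -0.66 to 0.67. That value was -0.30 without AT10 replicate 3 and 0.22 without AT10 replicate 1. In AT1 and AT01 it was 0.01 (-0.14 to 0.17) and -0.01 (-0.20 to 0.17). The interval of AT10 was the widest of the 3, as its libraries were the most spread.

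Tnfrsf12a, the receptor of the cytokine TWEAK (encoded by Tnfsf12), was the most abundant member. Tnfrsf12a (MSTRG.2433) stood at 202.12, 213.24 and 201.91 FPKM in FCA, 198.99, 172.49 and 163.11 in AT01, 187.45, 164.81 and 160.85 in AT1, and 200.24, 351.64 and 187.08 FPKM in AT10. Of the 9 TCDCA libraries, 8 were below all FCA libraries and AT10 replicate 2 was above them. Against FCA the log2 fold change was -0.27 in AT1 (95% interval -0.45 to -0.083), which had a limma p of 0.0127 before adjustment and an adjusted p of 0.42. In AT01 it was -0.21 (-0.44 to 0.017, limma adjusted p = 0.72). In AT10 it was 0.20 (-0.41 to 0.81, limma adjusted p = 0.748), and -0.09 without AT10 replicate 2, so that 1 library set its direction. Over all TCDCA libraries it was -0.09, and -0.20 without that library.

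Ltbr, the lymphotoxin beta receptor, varied more from library to library. Ltbr (MSTRG.13056) stood at 58.14, 65.88 and 104.6 FPKM in FCA, 59.43, 58.01 and 51.99 in AT01, 89.96, 87.95 and 55.22 in AT1, and 59.82, 55.46 and 48.26 FPKM in AT10. High values, from 87.95 to 104.6 FPKM, were found in FCA replicate 3 and in AT1 replicates 1 and 2, so the groups overlapped. Set against FCA, AT10 gave a log2 fold change of -0.43 (95% interval -1.01 to 0.14), AT1 one of 0.04 (-0.68 to 0.76) and AT01 one of -0.38 (-0.94 to 0.17), with limma adjusted p of 0.502, 0.966 and 0.783. Without FCA replicate 3, its highest library, these were -0.19, 0.29 and -0.13. For all TCDCA libraries it was -0.26, and -0.0091 without that library.

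Fas, the death receptor of Fas ligand, was the least abundant of the 6 receptors described. Fas (MSTRG.2074) stood at 3.37, 6.04 and 3.08 FPKM in FCA, 5.44, 3.58 and 3.3 in AT01, 3.56, 3.02 and 3.21 in AT1, and 2.83, 2.9 and 2.5 FPKM in AT10. The 3 AT10 libraries were below every library of the other 3 groups. The log2 fold change of AT10 was -0.42 against FCA (95% interval -0.97 to 0.13), -0.43 against AT01 (-0.85 to -0.0032) and -0.19 against AT1 (-0.40 to 0.029). None of them passed the test, the limma adjusted p being 0.498, 0.867 and 0.748. AT01 stood at 0.005 against FCA. Without FCA replicate 2, the highest library, the value of AT10 against FCA was -0.18, and that over all TCDCA libraries changed from -0.22 to 0.03.

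Tnfrsf21, known as death receptor 6, ranged from 4.79 to 7.72 FPKM (MSTRG.17801). Its FCA libraries spanned 4.79 to 7.48 FPKM, which covered all but 1 of the TCDCA libraries, and its log2 fold changes against FCA were -0.029, -0.048 and 0.077 in AT01, AT1 and AT10. Over all TCDCA libraries it was 0.00, with a 95% interval from -0.25 to 0.25.

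The adaptors were at similar levels to each other. Tradd (MSTRG.8618), the death domain adaptor of TNF receptor 1, had means of 10.1 ± 0.951 FPKM in FCA, 8.92 ± 2.01 in AT01, 9.95 ± 0.473 in AT1 and 9.61 ± 0.208 in AT10 (SD, n = 3). Traf2 (MSTRG.10787), which joins the receptor complex to ubiquitin ligases, had means of 7.98 ± 1.81, 7.97 ± 1.18, 8.02 ± 2.16 and 7.42 ± 1.12 FPKM in the same order. The groups overlapped for both adaptors in all comparisons. Over all TCDCA libraries the log2 fold change was -0.08 for Tradd (95% interval -0.31 to 0.15) and -0.02 for Traf2 (-0.35 to 0.31).

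**Figure D2:**
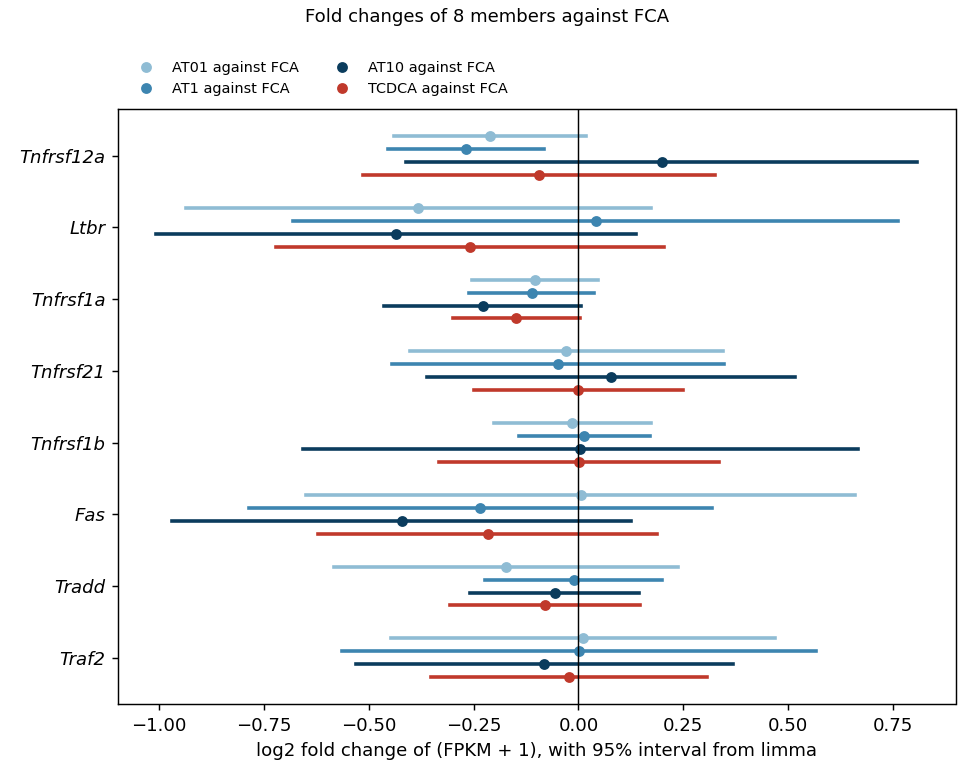
The log2 fold change of FPKM + 1 (horizontal axis) against FCA for the 8 members tested (rows), for each TCDCA dose and for the 9 TCDCA libraries together; points are limma estimates and lines their 95% intervals. The interval of Tnfrsf12a in AT1 (-0.45 to -0.083) lies below 0, and the other intervals shown cross 0.

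Counted over the 8 members tested, 0 passed an adjusted p of 0.05 by limma in any of the 7 comparisons of groups or across the 4 groups. Against FCA, the share of all records that passed was 0.172% for AT10, 0.0947% for AT1, 0.0947% for AT01 and 0.0258% for the 9 TCDCA libraries. Between doses the share was 0.258% for AT10 and AT1, 0.0689% for AT10 and AT01 and 0.129% for AT1 and AT01, and across the 4 groups it was 0.0431%. Before adjustment, 1 member was under 0.05 in AT1 against FCA (Tnfrsf12a), where 11% of all records were, and 1 in AT10 against AT01 (Fas), where 4.97% were. In the other comparisons 0 members were, with shares of all records of 11.9% for AT10, 6.6% for AT01 and 12% for the 9 TCDCA libraries against FCA, 6.46% for AT10 against AT1, 3.43% for AT1 against AT01 and 8.57% across the 4 groups. An ordinary F test in the manner of Ballgown also called 0 members.

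Groups that did not overlap were counted too. With the members lower, there were 2 in AT10 against FCA (Tnfrsf1a and Fas, background 9.18%), 2 in AT1 (Tnfrsf1a and Tnfrsf12a, background 10%) and 2 in AT01 (Tnfrsf1a and Tnfrsf12a, background 8.06%). In the 9 TCDCA libraries against FCA there was 1, Tnfrsf1a, where 1.9% of all records lay wholly below FCA. Between doses, Fas was wholly lower in AT10 than in AT1 (background 8.16%), and Fas and Tnfrsf1a were wholly lower in AT10 than in AT01 (background 6.47%). No member was wholly lower in AT1 than in AT01 (background 3.75%). With the members higher, the count was 0 in each comparison, against backgrounds of 10.7%, 9.87%, 5.97% and 0.956% for AT10, AT1, AT01 and the 9 TCDCA libraries against FCA. Between doses the backgrounds for higher were 5.7% for AT10 over AT1, 4.64% for AT10 over AT01 and 4.86% for AT1 over AT01. The median log2 fold change of the members over the 9 TCDCA libraries was -0.087, beside 0.003 over all records tested.

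In the wider TNF family, few ligands and few further receptors were well above 0. Of 13 further ligands with a record, 1 reached 1 FPKM in all libraries. This was Tnfsf12, the ligand of Tnfrsf12a, with a mean of 6.75 FPKM (4.79 to 8.9). Tnfsf4, Cd70, Tnfsf13 and Tnfsf14 were also listed but had no record by these names, so ligands of the members may be missing here. Of those with a record, further ligands of the members were named after their values were seen. The lymphotoxins that bind Ltbr and the TNF receptors were near 0, with means of 0.019 FPKM for Lta and 0.011 for Ltb, as was Fas ligand (Faslg) at 0.031 FPKM. Of 18 further receptors with a record, 2 reached 1 FPKM in all libraries, Tnfrsf11b (osteoprotegerin, a soluble decoy receptor, mean 21.1 FPKM) and Relt (2.94 FPKM).

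**Figure D3:**
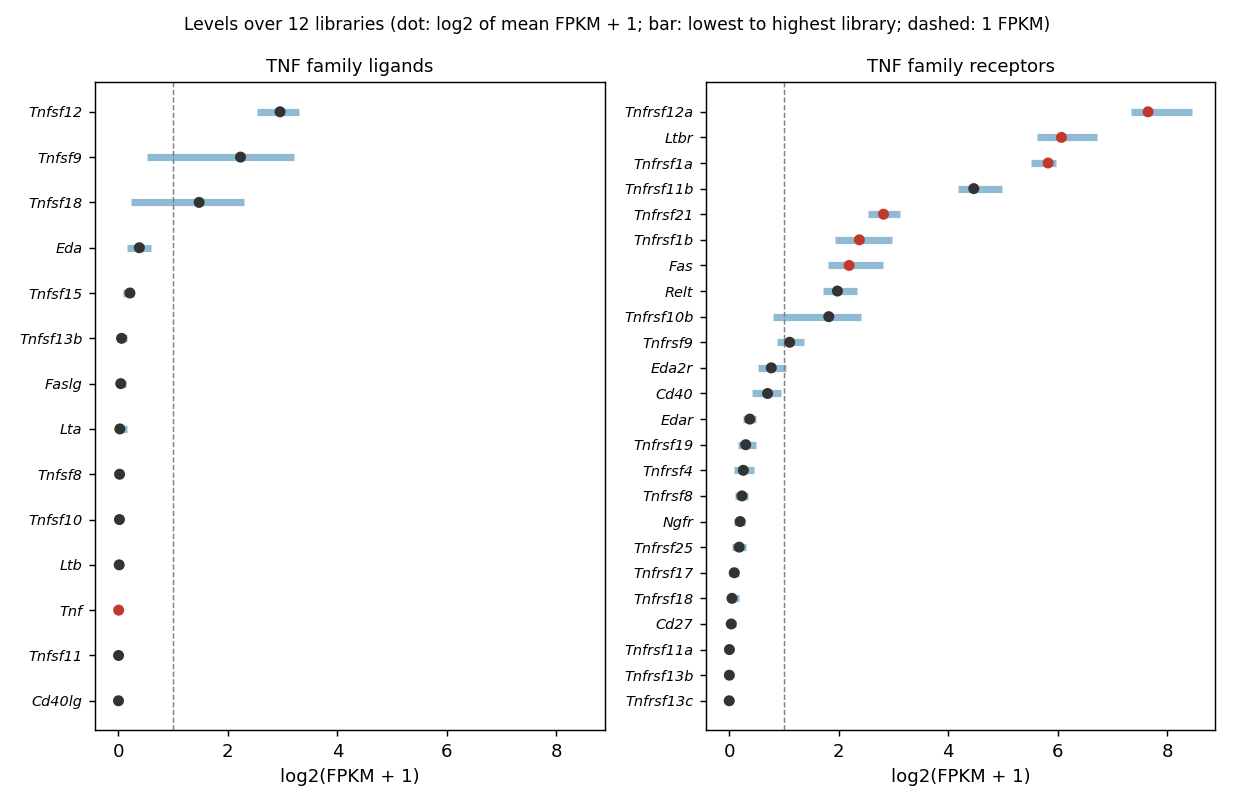
Levels of 14 ligands (left) and 24 receptors (right) of the TNF family on a log2(FPKM + 1) axis; dots mark the mean over 12 libraries, bars run from the lowest to the highest library, red dots are members and the dashed line is 1 FPKM. Tnf lies at 0, with Tnfsf12 the only ligand wholly right of the line, while Tnfrsf12a, Ltbr and Tnfrsf1a are the highest receptors.

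The proteins behind the receptors were nearly all transcribed. Among 28 receptor complex and signalling genes with a record, 26 reached 1 FPKM in all libraries, led by Tnip1 (an inhibitor of NF-kB signalling, mean 31.7 FPKM) and Ripk3 (a kinase of necroptosis, 30.4 FPKM). All 7 genes for the shedding of TNF and its receptors did, led by Adam17 (the TNF converting enzyme, mean 25.9 FPKM, from 14.94 to 34.68) and its cofactor Frmd8 (20.7 FPKM). Of 29 TNF and NF-kB target genes, 23 did. The chemokine Ccl2 had the highest mean of them at 1625 FPKM, from 1121.54 FPKM in FCA replicate 1 to 2737.13 in AT10 replicate 3, and Cxcl1 followed at 560.5 FPKM. The chemokine Ccl5, named because it stood apart, was listed at 0 in all 12 libraries.

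None of the 67 records tested from these 5 lists passed an adjusted p of 0.05 by limma in any comparison. In AT10 against FCA, 11 were under 0.05 before adjustment, 9 of them higher and 2 lower, beside 11.9% of all records. In AT1 there were 6, 5 higher and 1 lower, beside 11% of all records, and in AT01 there were 6, 4 higher and 2 lower, beside 6.6%. For the 9 TCDCA libraries there were 11, 8 higher and 3 lower, beside 12% of all records. Of the 11611 records tested, those under 0.05 by limma before adjustment were 875 higher and 504 lower in AT10 against FCA. They were 646 and 632 in AT1, 298 and 468 in AT01, and 680 and 714 for the 9 TCDCA libraries. The split of the lists by direction was not tested. The median log2 fold change of the 26 target genes tested was 0.165 for AT10, 0.004 for AT1 and 0.058 for AT01 against FCA. Over all records the medians were -0.009, 0.016 and 0.002. For many target genes AT10 replicate 3 was the highest AT10 library, such as Ccl2 (1714.27, 1565.03 and 2737.13 FPKM) and Cxcl1 (384.43, 479.05 and 978.47 FPKM). For others it was not, such as Sod2 (206.96, 282.33 and 241.78 FPKM). The medians were not recomputed with 1 library left out, so no rise in AT10 is read from them.

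Tnfsf9, the ligand of the costimulatory receptor encoded by Tnfrsf9, had 2 separate levels. Tnfsf9 stood at 0.73, 0.44 and 0.98 FPKM in FCA, 5.16, 6.24 and 3.51 in AT01, 4.5, 5.9 and 3.82 in AT1, and 8.28, 4.2 and 0.59 FPKM in AT10. All TCDCA libraries except AT10 replicate 3 were above FCA. By dose against FCA, its log2 fold change was 1.78 in AT01, 1.74 in AT1 and 1.32 in AT10. The limma adjusted p was 0.131, 0.0925 and 0.472, so none of them passed the test. The log2 fold change over the 9 TCDCA libraries was 1.61 (limma adjusted p = 0.257), which did not pass the test. It passed only where AT10 replicate 3, the library that went the other way, was left out (1.83, limma adjusted p = 0.0121), and no change is read from that. In the same lists Fadd, an adaptor of death receptors, and the chemokine Cx3cl1 also had 2 separate levels, named after their values were seen.

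The following genes were chosen after their values were seen. Tnfsf18, a ligand that binds a costimulatory receptor of T cells, stood at 3.68, 3.87 and 2.59 FPKM in FCA, 0.44, 3.88 and 0.17 in AT01, 0.43, 0.35 and 3.08 in AT1, and 1.92, 0.6 and 0.36 FPKM in AT10. Its AT10 libraries were wholly below FCA, as 9.18% of all records were, with a log2 fold change of -1.23 (limma adjusted p = 0.243). AT01 and AT1 overlapped FCA, and over the 9 TCDCA libraries the log2 fold change was -1.15 (limma adjusted p = 0.356). Tnfrsf10b, a death receptor for TRAIL, stood at 0.78, 1.57 and 0.74 FPKM in FCA and at 3.94, 4.15 and 4.34 FPKM in AT10. The log2 fold change was 1.36, with a limma adjusted p of 0.0842. It was 1.55, with an adjusted p of 0.0177, only where FCA replicate 2, the FCA library nearest to AT10, was left out. In AT1 and AT01 its libraries were spread from 0.82 to 4.25 FPKM. Vcam1, an adhesion molecule induced by TNF, was above all FCA libraries (2.55 to 3.64 FPKM) in all 9 TCDCA libraries (4.01 to 5.7 FPKM), with a log2 fold change of 0.49 and a limma adjusted p of 0.201. Of the 67 records tested from the lists, 2 lay wholly above FCA in this way, beside 0.956% of all records. The other was Cyld, at 3.77 to 5.04 FPKM in TCDCA beside 3.48 to 3.65 FPKM in FCA. Icam1, another adhesion molecule induced by TNF, stood at 22.91, 18.2 and 39.88 FPKM in FCA, 41.14, 37.27 and 18.36 in AT01, 17.52, 18.88 and 36.7 in AT1, and 38.36, 38.57 and 36.53 FPKM in AT10. Low and high values were thus mixed within FCA, AT01 and AT1. In AT10 against AT1 its log2 fold change was 0.69 (limma adjusted p = 0.748). It was 1.02, with an adjusted p of 0.0169, only where AT1 replicate 3, the AT1 library at the level of AT10, was left out, and no difference is read from that.

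For Tnfrsf1a and Tnfrsf12a the records with the most similar profile were looked up among the 11611 tested. Likeness was the root mean square distance between z-scores of log2(FPKM + 1) over the 12 libraries, given as a description. The nearest to Tnfrsf1a were Ehd2 (distance 0.333), Duoxa1 (0.343) and AC095390.1 (0.357). Without AT10 replicate 3, where Tnfrsf1a was lowest, Ehd2 was still the nearest, while the other 2 stood at ranks 21 and 23. The nearest to Tnfrsf12a were Dctpp1 (0.256), Tubb6 (0.313) and Chpf (0.370). Without AT10 replicate 2, where Tnfrsf12a was highest, they stood at ranks 10, 50 and 683, so that Chpf moved the farthest from it. Among the other members, the closest to Tnfrsf1a was Fas at rank 1158 and the closest to Tnfrsf12a was Tradd at rank 3375.

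**Figure D4:**
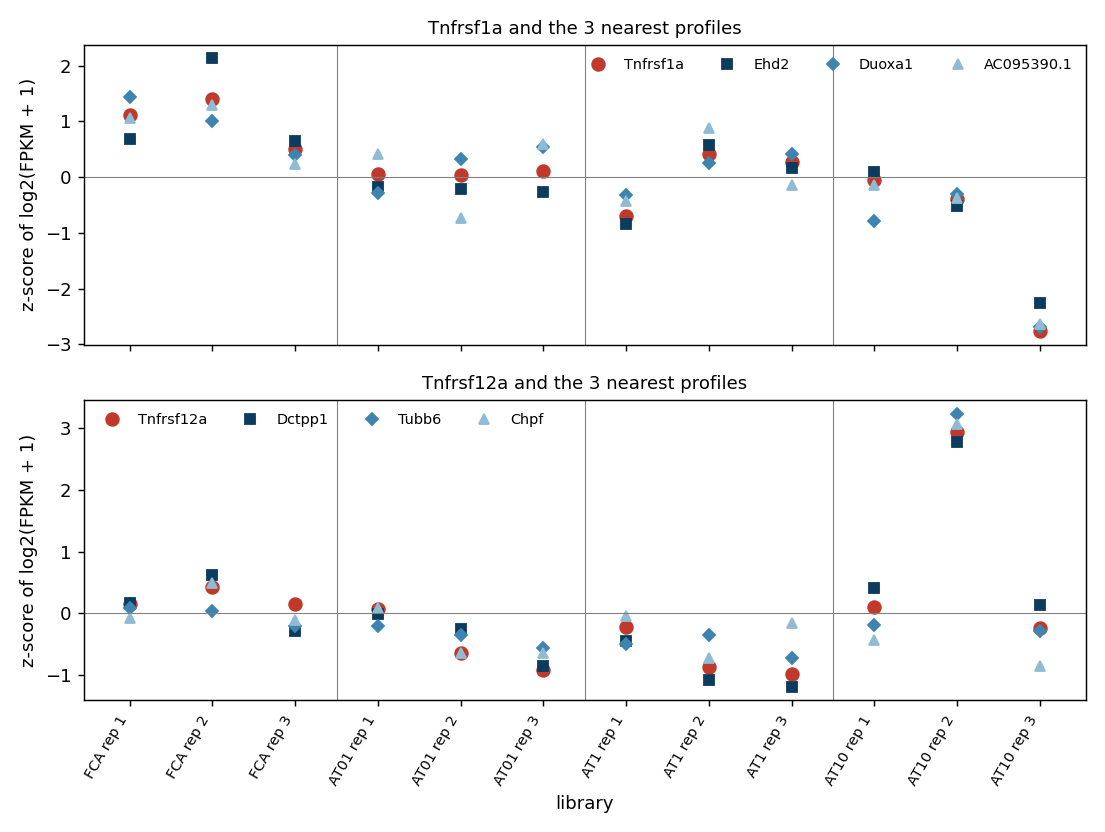
The z-score of log2(FPKM + 1) (vertical axes) in each of the 12 libraries (horizontal axis) for Tnfrsf1a (upper) and Tnfrsf12a (lower), each with its 3 nearest records. The lowest Tnfrsf1a value is AT10 replicate 3 (44.88 FPKM) and the highest Tnfrsf12a value is AT10 replicate 2 (351.64 FPKM). In both panels the nearest records follow at these libraries, which is a result of choosing them by likeness over the same 12 libraries.

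By the annotation terms in the table, 5 members (Tnf, Tnfrsf1a, Tnfrsf1b, Tnfrsf21 and Ltbr) carried the inflammatory response term, which 171 records carried. The extrinsic apoptotic signaling pathway term was carried by 4 (Tnfrsf1b, Tnfrsf12a, Fas and Tradd) of 22 records in all. Of the 13 records annotated with TNF-activated receptor activity, 4 were members (Tnfrsf1a, Tnfrsf1b, Tnfrsf21 and Ltbr), and these 4 spanned means from 4.20 to 66.2 FPKM.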

How the data were processed

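Poly(A) RNA of 12 FLS libraries (FCA, AT01, AT1 and AT10, 3 each) was sequenced. The authors aligned reads with HISAT2 2.0.4, estimated expression with StringTie 1.2.4 and Ballgown 2.6.0 and deposited 1 FPKM value, to 2 decimals, per library and gene record (22442 in all). The submitters' processing notes also name cutadapt and edgeR. The genome build is not given in the sources used here, nor is whether counting used strand. Of value columns without a sample there were 0. Groups were taken from the labels.

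Values were analysed as log2(FPKM + 1), which understates changes of low genes. Records averaging 1 FPKM or more (11611) were fitted with limma 3.58.1 in R 4.3.3 (lmFit, eBayes with trend), 2 groups at a time, with all TCDCA libraries against FCA and across the 4 groups. P-values were adjusted by Benjamini-Hochberg over all records tested and read at 0.05. The fit was tested on simulated data. Exact permutation tests used Python 3.11.15 and SciPy 1.17.1.

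The members and lists were chosen with earlier results of these data known. Named were all members, in each list the 2 genes of highest mean FPKM and any that passed the test, and the 3 nearest records of Tnfrsf1a and Tnfrsf12a. Where a name had several records, the one of highest mean was used. Alternatives were 1 fit over 12 libraries, an F test after Ballgown, a replicate block, each library left out, FPKM added up per gene name, scaling by median of ratios, a pseudocount of 0.1, and a minimum mean of 10 FPKM or none. Listed genes without a matching record were not analysed here.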

Additional observations from a re-analysis of the deposited data

Results flagged for a closer look

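Among the 9 TCDCA libraries, 5 of the 8 members present in all libraries had 1 library set apart from the other 8 by a gap that was wide for the range of all 9 (Dixon's criterion at 95%). The criterion is set so that chance gives such a gap in about 1 of 20 groups of values drawn alike, which libraries of 3 doses need not be. The share of all records tested that met it was not computed, so the count of 5 is not read as particular to these members. Tnfrsf12a was 351.64 FPKM in AT10 replicate 2, beside 160.85 to 200.24 FPKM in the others. Tnfrsf1a was lowest in AT10 replicate 3, at 44.88 FPKM beside 52.66 to 57.41 FPKM. Tnfrsf1b was highest in that same library, at 6.82 FPKM beside 2.84 to 4.29 FPKM. Tnfrsf21 was 7.72 FPKM in AT10 replicate 1, beside 5.41 to 6.55 FPKM. Fas was 5.44 FPKM in AT01 replicate 1, beside 2.5 to 3.58 FPKM. Tnf, at 0.03 FPKM in AT01 replicate 2, met the criterion too, but only because the other 8 were listed at 0, where any value above 0 would meet it. The 9 libraries span 3 doses, and each of the 3 AT10 libraries was the one set apart for at least 1 member.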

How the results depend on the processing

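The count of members passing an adjusted p of 0.05 stayed at 0 in 123 of 123 recomputed counts. Of 236 member fold changes recomputed without leaving out a library, 0 changed direction and the lowest adjusted p was 0.282, where a fold change rounding to 0.00 was taken as having no direction. With 1 library left out, 23 of 240 changed direction and the lowest adjusted p was 0.327. The log2 fold changes in AT10 against FCA then ranged from -0.087 to 0.37 for Tnfrsf12a, -0.062 to 0.21 for Tnfrsf21, -0.25 to 0.044 for Traf2 and -0.11 to 0.0102 for Tradd. In AT1 they ranged from -0.19 to 0.088 for Tnfrsf21, -0.13 to 0.29 for Ltbr, -0.38 to 0.0119 for Fas and -0.065 to 0.055 for Tradd. In AT01 they ranged from -0.0376 to 0.0151 for Tnfrsf1b, -0.17 to 0.11 for Tnfrsf21 and -0.16 to 0.14 for Traf2. Values that round to 0.00 in the reported fit were not counted among the 23, among them Fas in AT01 (-0.17 to 0.25) and Tnfrsf1b in AT10 (-0.30 to 0.22) against FCA. Over all TCDCA libraries they ranged from -0.36 to 0.0291 for Fas and -0.19 to 0.10 for Traf2. Of the counts for the wider lists, 120 of 123 stayed at 0, and with 1 library left out they ranged from 0 to 1 in AT10 against FCA, in AT10 against AT1 and in TCDCA against FCA. With 5 FPKM as the level, 5 members were present in all libraries, in place of 8. The fit with a replicate block called 0 members in each comparison. The paper describes the replicate numbers as sets of repeated studies. No pairing by number was evident, as deviations of same-numbered libraries correlated between -0.105 and 0.094 (18 pairs, median 0.0035). Such correlations over all records tested cannot exclude a pairing that moves few genes. The block lowered the records called in AT10 against FCA from 20 to 1. The cause of these changes was not tested. The paper gives the valid reads of each library, which differed between libraries. It gives neither the mapped reads nor the fragments behind each FPKM, so a value of 0 has no stated limit.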
